A study of Mus musculus with 18 samples.

Results

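The genes that make and use microRNAs were followed in mouse bone marrow-derived macrophages of 3 genotypes at the miR-146a locus, at rest and after lipopolysaccharide (LPS). The set held 10 genes, Drosha, Dgcr8, Dicer1, Ago1, Ago2, Ago3, Ago4, Tnrc6a, Tnrc6b and Tnrc6c. They were found by symbol among the 21734 protein-coding genes of the deposited count table, with 1 row each, and all 10 were among the 11357 genes that passed the filter on low counts. They are defined by their known roles, not by a threshold on a measured value, and they were chosen with earlier results of these data known.

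Wild-type (WT) cells were compared with cells homozygous for a miR-146a null allele (KO), from which the pre-miRNA sequence was removed, and with cells homozygous for the 3F allele, in which the seed was kept and mature positions 13 to 20 were exchanged with the opposite strand of the hairpin. All mice were on a mixed 129/B6 background and were derived from edited V6.5 ES cells. The age stated for the mice of the macrophage cultures was 6 to 7 months. The study's mass spectrometry methods give a younger age, though each replicate is described as split between sequencing and mass spectrometry. Marrow was cultured for 8 to 9 days in 10 ng/ml M-CSF, plated at 85000 cells per cm2, and harvested at rest or after 16 h with 1 ng/ml LPS. Each of the 6 groups held 3 libraries, and LPS binds Toll-like receptor 4 on the macrophage. The labels number the libraries of every group but do not say that a resting and an LPS library with the same number came from the same mouse. The study calls them biological replicates, 3 for each genotype, and does not say whether each came from its own mouse. Mature miR-146a is not in a table of protein-coding genes and was not analysed here.

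MicroRNA genes are transcribed as long primary transcripts. In the nucleus the Microprocessor, the RNase III enzyme DROSHA with its RNA-binding partner DGCR8, cuts out a hairpin, and in the cytoplasm the RNase III enzyme DICER1 trims the hairpin to a duplex. One strand of the duplex is loaded into an Argonaute protein, AGO1 to AGO4, where the seed guides it to target mRNAs. AGO2 is the member best known for cutting a fully matched target. The TNRC6 proteins (GW182 family) bind Argonaute and recruit the deadenylases that start the decay of the target. In macrophages miR-146a is induced through NF-κB and is known as a brake on Toll-like receptor signalling.

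The miR-146a sequences are shown because the genotypes differ in them and because its seed was searched for in the transcripts of the 10 genes. In RefSeq (GRCm38.p6) mature miR-146a-5p lies on the minus strand at chr11:43374435-43374456 and miR-146b-5p, which shares its seed, on the plus strand at chr19:46342790-46342811. The first 2 lines below give them 5′ to 3′ with the seed, bases 2 to 8, in capitals. The other lines give the guide strands of the study's designed WT and 3F mimics, with the 8 positions at which they differ in capitals.
miR-146a-5p: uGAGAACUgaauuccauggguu
miR-146b-5p: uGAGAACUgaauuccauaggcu
WT mimic: ugagaacugaauUCCAUGGG
3F mimic: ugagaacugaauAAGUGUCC
Counted from the 5′ end, the substitutions from WT to 3F were U13A, C14A, C15G, A16U, U17G, G18U, G19C and G20C. The 3F mimic thus has the same seed as WT, and miR-146b-5p, which none of the alleles touches, has the same seed as miR-146a-5p.

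Matches to that seed were looked for in the 3′ untranslated region (UTR) of the longest protein-coding transcript of each gene in GENCODE M21 (GRCm38). A match was the 7 letters AGTTCTC, which pair with bases 2 to 8, or the 6 letters GTTCTC followed by A. In 6 of the 10 genes at least 1 such match was present, against 20.3% of the 11261 tested genes that had an annotated 3′ UTR. The UTRs of the set are long, and among all tested genes with a 3′ UTR of 2000 bases or more the share was 42.8%. Among the 8 genes of the set with a UTR that long, Ago4 and Dicer1 had no match. Drosha and Dgcr8, with UTRs of 168 and 1574 bases, had none either. Tnrc6b had 4 matches in 11609 bases, Tnrc6a had 2, and Ago1, Ago2, Ago3 and Tnrc6c had 1 each. The deposited exon length of Tnrc6b, 5329 bases, is below that of this UTR. Whether its matches lie in the counted exons is thus not known. The 3 matches below are those of Ago1, at chr4:126436018-126436047 on the minus strand, of Tnrc6b, at chr15:80930734-80930763 on the plus strand, and of Ago2, at chr15:73102354-73102382 on the minus strand. Capitals mark the letters that pair with the seed, with the A opposite base 1 where it is present.
Ago1: tctagaaatctAGTTCTCAactgcgacata
Tnrc6b: ttacttctatcAGTTCTCAttatcatgtga
Ago2: ctctgacaagaAGTTCTCcctctctatac
A match of letters is not a measured site, and the KO and 3F values of all 6 genes with a match are given with the genotype comparisons.

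The libraries held 4071084 to 19818043 counts, and a member had between 62 (Drosha) and 2552 (Ago3) counts in a library. Values are counts scaled to 1e+06 counts of the TMM-scaled library size (CPM). In every library the summed CPM of 8 macrophage markers (31239 to 86561) was far above that of 8 neutrophil (13.7 to 67.0), 5 T cell (0.449 to 11.3), 5 dendritic cell (at most 3.96), 4 B cell (at most 0.869), 4 fibroblast (at most 2.42) and 6 erythroid and mast cell markers (at most 1.40). Cd3e was at 0 in all 18 libraries, and Ly6g in 14 of them. A list of 10 interferon-stimulated genes summed to 83.1 to 192 CPM in resting WT and 3F cells and to 364 to 10847 CPM in resting KO cells. Summed CPM of 8 proliferation genes was 740 to 1091 in resting WT and 205 to 331 in resting KO cells. After LPS the interferon-stimulated genes summed to 2637 to 15586 CPM in WT, 9915 to 13471 CPM in KO and 4814 to 7199 CPM in 3F cells, and the proliferation genes to 308 to 621, 188 to 266 and 267 to 584 CPM. The part of these 2 lists in the LPS responses below was not tested. In RNA from whole cultures, fewer cells of a type and less RNA per cell cannot be told apart.

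The 10 genes have 3.53 kb (Dgcr8) to 15.8 kb (Ago3) of exon in the deposited table, and 3 resting libraries were low in long genes. By length, Dgcr8 stood at percentile 55.0 and Drosha at 69.2 of tested genes, and the others at 79.1 (Tnrc6b) or above. The median deviation of 769 genes of 8 kb or more from their group mean, minus that of 2680 genes of 2 kb or less, was -0.47 (log2) in resting 3F library 3, -0.26 in resting KO library 3 and -0.26 in resting WT library 1. The median deviation of the 10 genes was -0.33, -0.19 and -0.21 in these libraries. In the same order, the 2 shortest genes were at 0.14, 0.31 and -0.33 (Drosha) and at 0.08, -0.06 and 0.0016 (Dgcr8). In the other 15 libraries the difference between long and short genes ran from -0.08 to 0.27. Resting KO library 3 was also the one with 10847 CPM of interferon-stimulated genes. On the first principal component of log2 CPM (64.6% of the variance) it lay at -18.5, near LPS WT library 2 at -15.4. The other resting libraries lay at 25.8 (resting KO library 1) or above, and the other LPS libraries at -26.2 (LPS 3F library 3) or below. On the second component (9.97%) resting 3F library 3 lay at -46.6, and the next lowest, LPS WT library 2, at -15.2. Resting 3F library 3 had the fewest counts, 4071084. It also had the highest sums of dendritic cell (3.96 CPM) and of erythroid and mast cell markers (1.40 CPM). The share of these library differences in each result was not tested. For many results, values from a fit without resting KO library 3 and resting 3F library 3 are given beside them. That fit kept resting WT library 1, so it took a library low in long genes from KO and from 3F but not from WT.

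**Figure D1:**
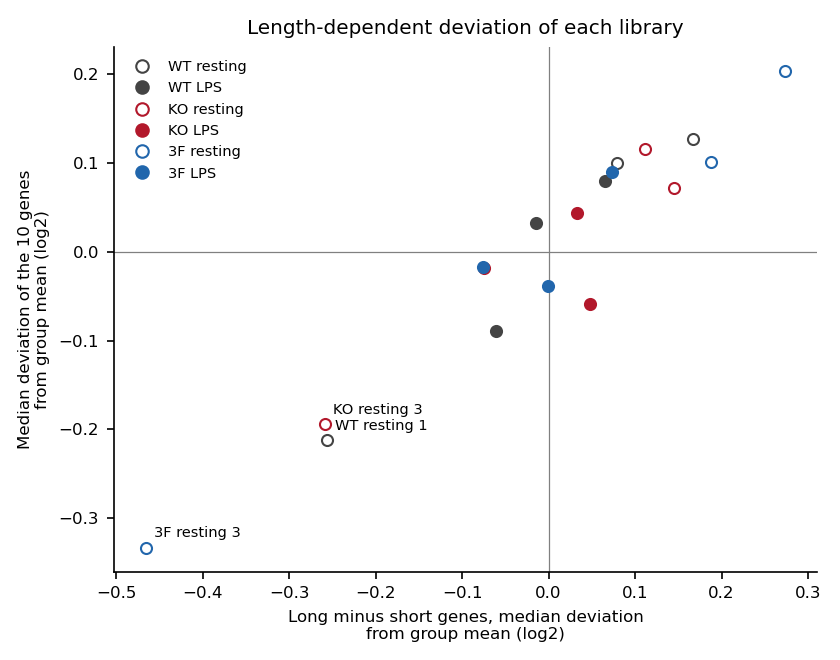
Each point is 1 library. The x axis is the median deviation of long genes (8 kb or more) from their group mean minus that of short genes (2 kb or less), and the y axis the median deviation of the 10 genes, both in log2 units. Open points are resting and filled points LPS libraries of WT, KO and 3F cells. Resting 3F library 3 at -0.47, and resting KO library 3 and resting WT library 1, both at -0.26, lie apart at the lower left.

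Per kb of exon, the genes of the set were neither rare nor abundant. Averaged over the 18 libraries, Ago1 was highest (10.6 CPM per kb, above 55.8% of tested genes), and Tnrc6a (9.59) and Dgcr8 (9.48) came next. Ago2 (6.89), Dicer1 (6.64), Ago4 (6.60), Tnrc6b (6.05) and Ago3 (5.84) lay close together, and Tnrc6c (3.61) and Drosha (3.47) were lowest. The level of Tnrc6b per kb rests on a deposited length of 5.33 kb, while its longest transcript in GENCODE M21 has 17332 bases. For Tnrc6a these lengths are 5.75 kb and 8183 bases, and for Dgcr8 3.53 kb and 4320 bases. The places of these genes in the order, here and in single groups, thus depend on the gene model.

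The order within resting WT cells was different. There Ago4 stood at 10.4 ± 1.99 CPM per kb (SD, n = 3), Ago2 at 9.11 ± 1.94, Tnrc6a at 8.86 ± 1.06, Ago1 at 8.84 ± 1.18 and Dgcr8 at 8.15 ± 0.631, and neighbours in this order differed by less than the larger of their SDs. Tnrc6b (6.93 ± 0.771), Dicer1 (6.81 ± 1.05) and Ago3 (5.01 ± 0.732) were lower, and Tnrc6c (3.62 ± 0.577) and Drosha (3.22 ± 0.744) lowest. In WT cells after LPS, Ago1 was at the top (11.5 ± 1.07 CPM per kb) and Ago4 (4.10 ± 0.791) above Drosha (3.43 ± 0.274) and Tnrc6c (3.25 ± 0.372) alone.

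**Figure D2:**
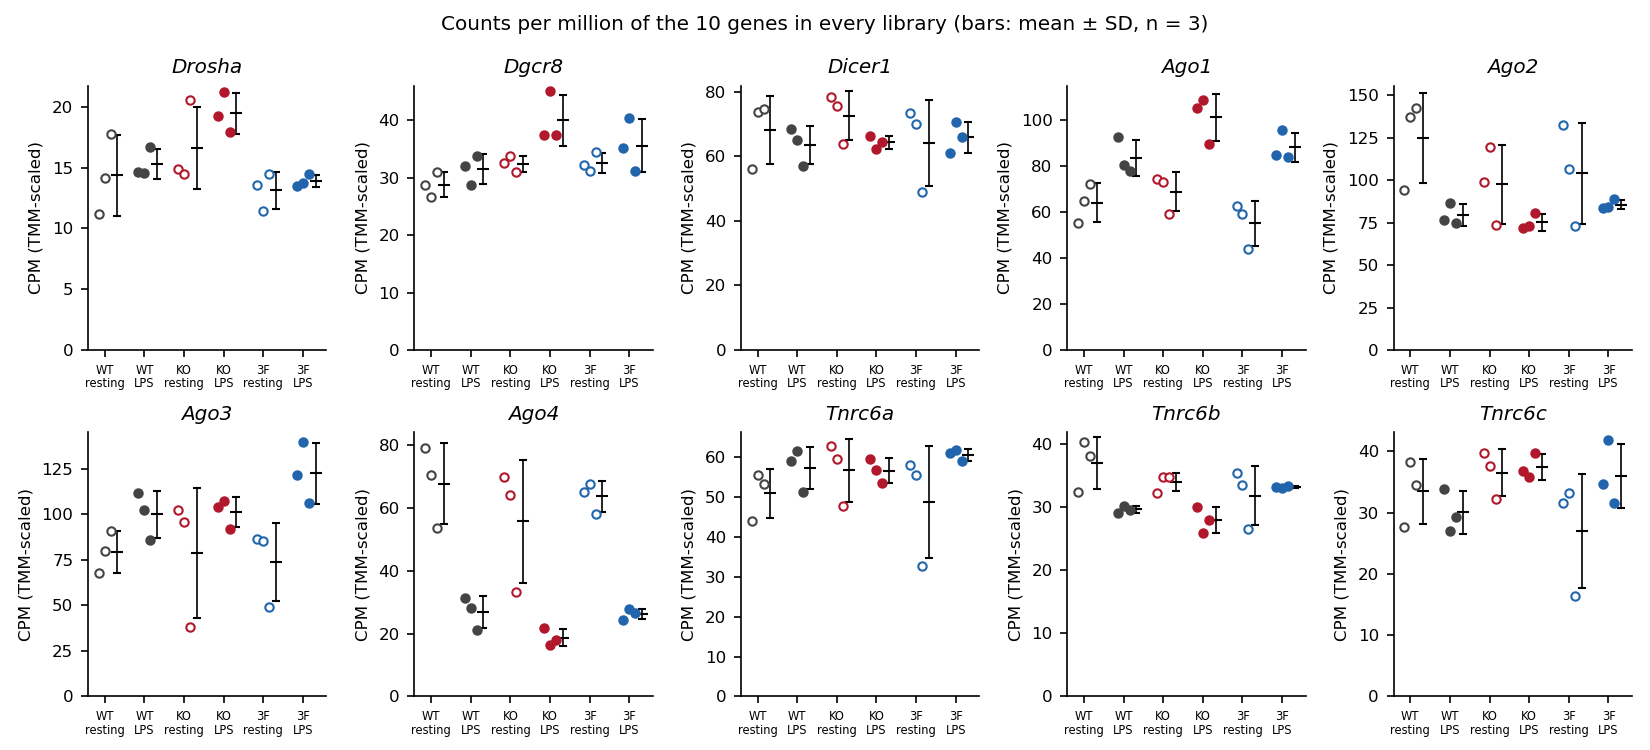
Each panel shows 1 gene and each point 1 library, with CPM of the TMM-scaled library size on a y axis that starts at 0. Open points are resting and filled points LPS libraries, and the black bar beside each group is the mean ± SD of 3 libraries. The Ago4 points of the LPS groups lie between 16.3 and 31.3 CPM, below all 9 resting points of 33.3 to 79.1 CPM.

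The first comparison asked how the machinery changed with LPS. Ago4 fell to 0.379 of its resting level in the mean of the 3 genotypes, and Ago1 and Ago3 were higher after LPS. Ago2, the slicing Argonaute, and Tnrc6b, one of the GW182 scaffolds, were lower. Of the enzymes of biogenesis, Dgcr8 passed the test on the mean of the genotypes by a small margin, and Drosha and Dicer1 did not pass. With edgeR's quasi-likelihood test and Benjamini-Hochberg adjustment over all tested genes, 3 of the 10 genes passed an adjusted p of 0.05 in WT, 2 in KO, 2 in 3F and 6 in the mean of the genotypes. The same was true of 28.5%, 26.9%, 31.2% and 52.1% of all tested genes, so the count of changed members was near that of genes in general in the mean. Of the 3 in WT all were lower, as were 12.3% of all tested genes, while 16.3% were higher. KO and 3F each had 1 gene higher (background 14.3% and 17.2%) and 1 lower (12.6% and 14%), and the mean had 3 higher (27.8%) and 3 lower (24.4%). The median log2 fold change of the 10 genes in the mean of the genotypes was 0.11, beside -0.00081 over all tested genes.

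**Figure D3:**
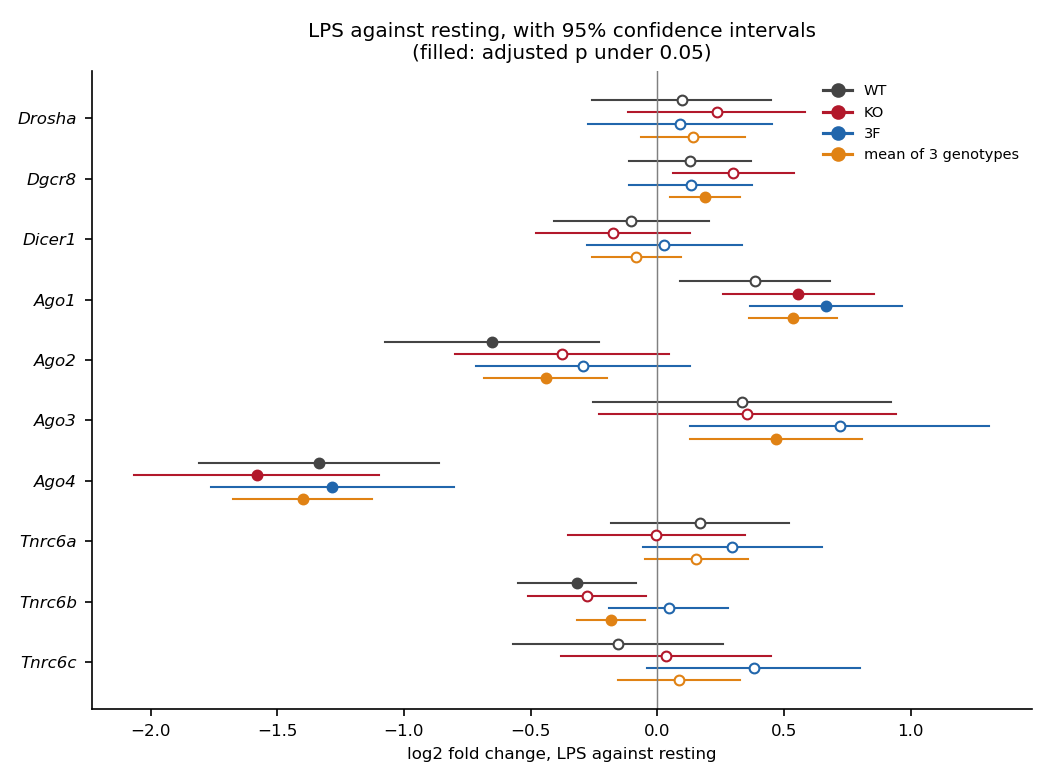
Points are log2 fold changes of LPS against resting for each gene and bars their 95% confidence intervals, in WT, KO, 3F and the mean of the 3 genotypes. Filled points had an adjusted p under 0.05 in edgeR's quasi-likelihood test. The 4 intervals of Ago4 lie wholly below -0.80. The small rise of Dgcr8 turns to -0.063 when libraries are scaled by size alone.

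Drosha, the nuclear RNase III, was the least abundant enzyme. It had 11.2, 14.2 and 17.8 CPM in the resting WT libraries and 14.7, 14.5 and 16.7 CPM after LPS, so the groups overlapped. Its log2 fold change was 0.14 in the mean of the genotypes (95% confidence interval -0.06 to 0.35, adjusted p = 0.238 in edgeR's quasi-likelihood test).

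Dgcr8 encodes the double-stranded RNA-binding subunit of the Microprocessor. It measured 28.8, 26.6 and 31.0 CPM in resting and 32.02, 28.7 and 33.8 CPM in LPS-treated WT cells. In KO cells the values were 32.6, 33.7 and 31.0 CPM at rest and 37.5, 45.0 and 37.4 CPM after LPS, and in 3F cells 32.2, 31.1 and 34.5 against 35.2, 40.3 and 31.2 CPM. Only in KO cells were the LPS libraries all above the resting ones, and the KO response did not differ from WT by the test of the difference (adjusted p = 1). The mean response was 0.19 ± 0.07 (log2, SE, adjusted p = 0.0247, edgeR), and it was -0.063 with scaling by library size alone, a scaling that moved the median of all tested genes by -0.25. The call of Dgcr8 on the mean was made in 16 of 28 alternatives. Among the others, it was lost without LPS KO library 2 (0.11, adjusted p = 0.165), without resting 3F library 3 alone (0.15, adjusted p = 0.0515) or together with resting KO library 3 (0.14, adjusted p = 0.0720), and without resting WT library 2, LPS WT library 3 or LPS 3F library 2 (0.15 to 0.17, adjusted p from 0.0503 to 0.0595).

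Dicer1, the cytoplasmic RNase III, ranged from 48.9 to 78.2 CPM over the 9 resting libraries and from 57.0 to 70.5 CPM over the 9 LPS libraries. The 2 lowest resting values were those of 3F library 3 and WT library 1, both low in long genes. Its log2 fold change was -0.08 in the mean of the genotypes (95% confidence interval -0.26 to 0.09, adjusted p = 0.421, edgeR). Without resting KO library 3 and resting 3F library 3 it was -0.21 and passed the test (adjusted p = 0.0107). Leaving out resting 3F library 3 alone gave -0.18 (adjusted p = 0.0419).

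All Argonaute genes but Ago2 are neighbours. Ago3 (chr4:126331704-126429556), Ago1 (chr4:126435012-126468583) and Ago4 (chr4:126489541-126533472) lie within 202 kb on the minus strand of chromosome 4 in GRCm38, 5455 and 20957 bases apart. Ago2 is alone at chr15:73095844-73184935. The 3 neighbours did not move together with LPS.

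Ago4 had the largest change of the set. Its resting libraries held 79.1, 70.5 and 53.5 CPM in WT, 69.8, 64.1 and 33.3 CPM in KO and 65.1, 67.7 and 58.0 CPM in 3F. After LPS the values were 31.3, 27.97 and 21.2 CPM in WT, 21.7, 16.3 and 18.04 CPM in KO and 24.5, 27.7 and 26.5 CPM in 3F. No LPS library reached any resting library, of the same or another genotype. The log2 fold change was -1.34 ± 0.22 (SE) in WT (adjusted p = 0.000366, edgeR quasi-likelihood test), -1.58 ± 0.23 in KO (8.34e-05) and -1.28 ± 0.23 in 3F (0.000524). In the mean of the genotypes it was -1.40 ± 0.13, and 2.97% of tested genes had a lower value. It passed the test under every alternative tried, with a mean response between -1.65 and -1.33. The Ago4 value of 33.3 CPM in resting KO library 3 was the lowest at rest, and without that library and resting 3F library 3 the KO response was -1.92.

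Ago1 moved the other way. It measured 55.1, 64.6 and 72.2 CPM in resting and 92.3, 80.4 and 77.7 CPM in LPS-treated WT cells. The KO libraries held 74.1, 72.9 and 58.9 CPM at rest and 105, 109 and 89.6 CPM after LPS, and the 3F libraries 62.4, 58.8 and 44.1 against 84.9, 95.4 and 83.7 CPM. In each genotype every LPS library was above every resting one. Ago1 rose in KO (log2 0.56 ± 0.14, SE, adjusted p = 0.00734) and in 3F (0.66 ± 0.14, adjusted p = 0.00222), and in WT the value of 0.39 ± 0.14 was just past the threshold on the other side (adjusted p = 0.0506, edgeR). The mean of the genotypes was 0.54 ± 0.08 (adjusted p = 4.13e-05) and passed under every alternative, between 0.29 and 0.57. In KO the call was lost with scaling by library size alone (0.27, adjusted p = 0.201) and without LPS library 2 (0.45, adjusted p = 0.0796), and in WT it was made without resting library 3 (0.48, adjusted p = 0.0389).

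Ago3 is less well characterised than Ago1 and Ago2. Its resting values were 67.6, 79.7 and 90.8 CPM in WT, 103, 95.7 and 37.9 CPM in KO and 86.5, 85.4 and 49.2 CPM in 3F. After LPS they were 111, 102 and 85.7 CPM in WT, 104, 107 and 91.7 CPM in KO and 121, 139.7 and 106 CPM in 3F. Libraries 3 of resting KO and 3F were the lowest of their groups by a wide gap, and Ago3 is the longest gene of the set. Only in 3F did the groups not overlap. The mean log2 fold change was 0.47 ± 0.16 (SE, adjusted p = 0.0215, edgeR), and no genotype passed on its own. Without both of those libraries the mean was 0.24 (adjusted p = 0.0129), and the KO response went from 0.36 to -0.049. The call on the mean was lost with scaling by library size alone (0.21, adjusted p = 0.288), without resting 3F library 3 alone (0.35, adjusted p = 0.0677) and without LPS KO library 2 (0.41, adjusted p = 0.0699).

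Ago2 was lower after LPS. It had 94.2, 137 and 143 CPM in resting WT cells and 76.5, 86.6 and 74.7 CPM after LPS, with no overlap. In KO cells 99.0, 119.6 and 73.7 CPM stood against 71.7, 72.9 and 80.9 CPM, and in 3F cells 132, 107 and 73.2 CPM against 83.6, 84.4 and 88.9 CPM. In both mutants the resting library 3 lay within or below the LPS values. Ago2 fell in WT (log2 -0.65 ± 0.20, SE, adjusted p = 0.0217) and in the mean of the genotypes (-0.44 ± 0.12, adjusted p = 0.00421, edgeR). In KO and 3F the log2 fold changes were -0.38 and -0.29 (adjusted p = 0.180 and 0.278), and without resting KO library 3 and resting 3F library 3 they were -0.62 and -0.52 and passed (adjusted p = 0.00416 and 0.0141). Leaving out resting KO library 3 alone gave -0.54 in KO (adjusted p = 0.0427). The call in WT was lost without LPS library 1 or 3 or resting library 2 or 3 (-0.63 to -0.54, adjusted p from 0.0727 to 0.0944).

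The makeup of the Argonaute mRNA pool does not depend on how libraries are scaled to each other. Ago4 made up 31.4 ± 7.67% of the summed Argonaute CPM per kb in resting WT cells (SD, n = 3) and 14.7 ± 1.48% after LPS. In KO its share went from 27.8 ± 3.31% to 9.96 ± 1.42%, and in 3F from 33.4 ± 4.23% to 13.3 ± 0.682%. Ago1 took the opposite course, from 26.5 ± 2.31% to 41.6 ± 1.99% in WT, from 32.5 ± 5.43% to 48.6 ± 2.34% in KO and from 25.8 ± 0.220% to 40.3 ± 0.306% in 3F. The resting and LPS libraries did not overlap in either share in any genotype, and 3 libraries against 3 cannot give an exact permutation p below 0.1. The Ago3 share went from 14.999 ± 1.51% to 22.7 ± 0.810% in WT, and that of Ago2 from 27.2 ± 4.29% to 21.0 ± 2.15%. The summed level of the 4 genes was 33.3 ± 2.15 CPM per kb in resting WT and 27.7 ± 2.68 after LPS, 30.1 ± 7.86 and 28.7 ± 1.61 in KO, and 29.6 ± 5.45 and 30.1 ± 1.97 in 3F.

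**Figure D4:**
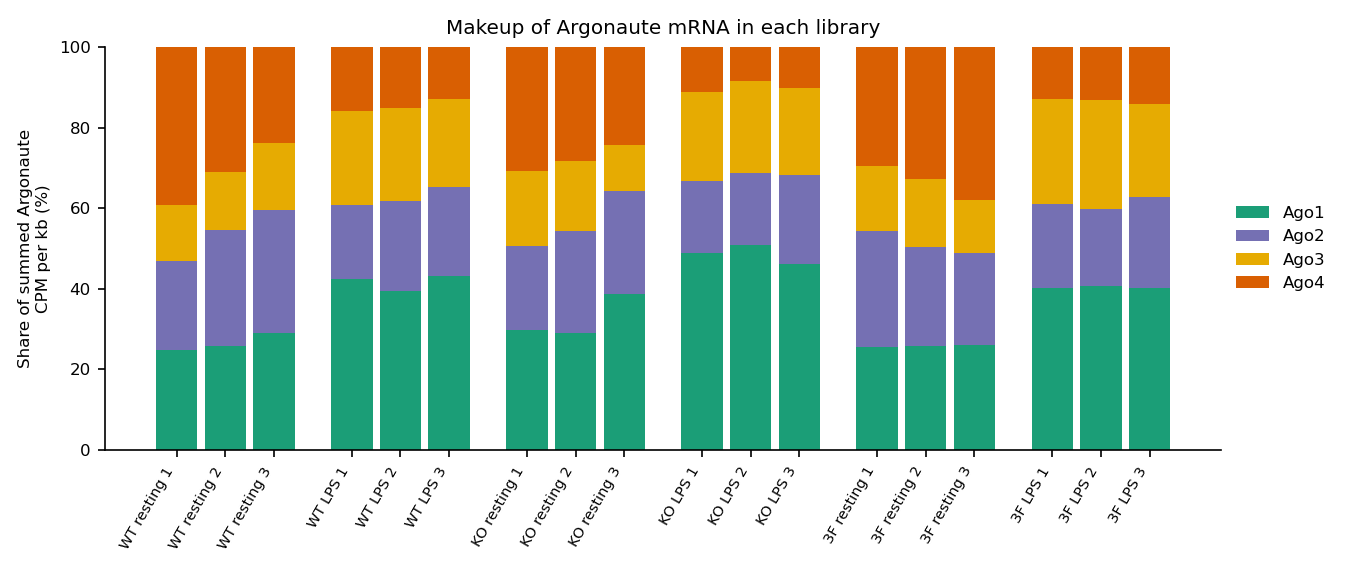
Each bar is 1 library and its colours give the percent of summed Argonaute CPM per kb of exon that came from each of the 4 genes. The Ago4 share lies between 23.9% and 39.2% in the 9 resting libraries and between 8.41% and 15.9% in the 9 LPS libraries.

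Since Ago1 and Ago4 are neighbours that moved apart, the sequence just upstream of each is shown. The lines give bases 250 to 51 before the RefSeq start (GRCm38.p6), 5′ to 3′ on the minus strand, for Ago1 at chr4:126468682-126468881 and for Ago4 at chr4:126533509-126533708. Capitals mark GGGCGG, the GC box letters, on either strand, with overlaps counted. RefSeq has a second start for Ago1, not shown.
Ago1: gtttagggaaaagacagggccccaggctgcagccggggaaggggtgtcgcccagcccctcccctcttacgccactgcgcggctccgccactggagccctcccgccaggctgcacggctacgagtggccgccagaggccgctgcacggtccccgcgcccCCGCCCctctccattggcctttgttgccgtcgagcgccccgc
Ago4: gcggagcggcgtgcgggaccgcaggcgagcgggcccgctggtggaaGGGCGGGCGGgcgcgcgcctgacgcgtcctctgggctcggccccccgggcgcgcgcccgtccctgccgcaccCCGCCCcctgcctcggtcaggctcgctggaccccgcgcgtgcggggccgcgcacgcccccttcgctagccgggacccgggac
The Ago1 window was 73% G or C and held 1 GC box, and the Ago4 window was 83.5% G or C and held 3. At the second Ago1 start the window was 74.5% G or C and held 2. The window of Ago3, which was higher after LPS in the mean, was 72.5% G or C and held 3. Of 32851 promoter windows of the same length, 24.6% held at least 1. Windows of 9 of the 10 genes were found, Ago2 not being among them. The 10-letter NF-κB consensus was present in 1 of them, Dicer1, and in 5.71% of all windows, both strands being searched. The match is shown in capitals, at chr12:104752029-104752058 on the minus strand and 96 bases before the RefSeq start.
Dicer1: cgacgccggtGGGATTCTCCaagccgctgt
GAAA followed by any 2 letters and GAAA, as in interferon-stimulated response elements (in 2.4% of all windows), and TGANTCA (AP-1, in 5.57%) were in none of the windows of the set. These are descriptions of the letters in a short window.

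Among the TNRC6 scaffolds, Tnrc6b was lower after LPS. It measured 32.4, 40.3 and 38.1 CPM in resting WT and 29.0, 30.2 and 29.6 CPM in LPS-treated WT cells, and 32.3, 34.8 and 34.7 against 30.02, 25.8 and 27.9 CPM in KO cells. In 3F cells the values were 35.3, 33.5 and 26.6 CPM at rest and 33.1, 33.0 and 33.3 CPM after LPS. The groups were apart in WT and KO and overlapped in 3F. Tnrc6b fell in WT (log2 -0.32 ± 0.11, SE, adjusted p = 0.0389) and in the mean of the genotypes (-0.18 ± 0.06, adjusted p = 0.0223), with -0.28 in KO (adjusted p = 0.0712) and 0.04 in 3F (adjusted p = 0.789, edgeR). The difference between the 3F and WT responses was 0.36 ± 0.16 (adjusted p = 0.9751), so it did not pass its own test. The WT call was made in 9 of 16 alternatives. It was lost with no filter on low counts (-0.36, adjusted p = 0.0948) and without LPS library 1, 2 or 3 or resting library 2 or 3 (-0.33 to -0.25, adjusted p from 0.0732 to 0.170). The call on the mean was made in 25 of 28 alternatives, and among the others it was lost without resting WT library 2 or resting 3F library 1 (both -0.16, adjusted p = 0.0549 and 0.0561). Without resting KO library 3 and resting 3F library 3, the KO value was -0.34 and passed (adjusted p = 0.0121).

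Tnrc6a and Tnrc6c, the other GW182 genes, did not pass. Tnrc6a ranged from 32.6 to 62.8 CPM at rest and from 51.4 to 61.8 CPM after LPS, with a mean log2 fold change of 0.15 (95% confidence interval -0.05 to 0.36, adjusted p = 0.191, edgeR). Tnrc6c ranged from 16.3 to 39.7 CPM at rest and from 27.0 to 41.8 CPM after LPS, with a mean of 0.09 (95% confidence interval -0.15 to 0.33, adjusted p = 0.548). In 3F cells the Tnrc6a libraries did not overlap, with 32.6 to 58.1 CPM at rest and 59.0 to 61.8 CPM after LPS. For both genes the lowest resting value was that of 3F library 3. Without it and resting KO library 3 the means were 0.0010 for Tnrc6a and -0.064 for Tnrc6c.

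The second comparison asked whether loss of miR-146a, or of its 3′ pairing bases, altered the machinery. No gene of the set passed in KO against WT at rest, where 9.4% of all tested genes did (5.12% higher, 4.27% lower), or after LPS, where 4.79% did (1.89% higher, 2.9% lower) (edgeR quasi-likelihood test). At an unadjusted p under 0.05 the counts were 0 and 2, beside 2671 and 2041 of the 11357 tested genes. Limma with quality weights called 2 after LPS while DESeq2 called 0. After LPS, Ago4 and Dgcr8 were each called in 1 of 16 alternatives. Averaged over both states, 1 of the 10 genes passed, against 19.3% of all tested genes (9.72% higher, 9.55% lower). In 3F against WT none passed at rest, after LPS or averaged over both states, with 0, 0 and 1 genes at an unadjusted p under 0.05. Of all tested genes 557, 106 and 233 were under that limit. Over all tested genes 0%, 0.00881% and 0.00881% passed, and neither DESeq2 nor limma called a member. The KO and 3F comparisons share the WT libraries.

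**Figure D5:**
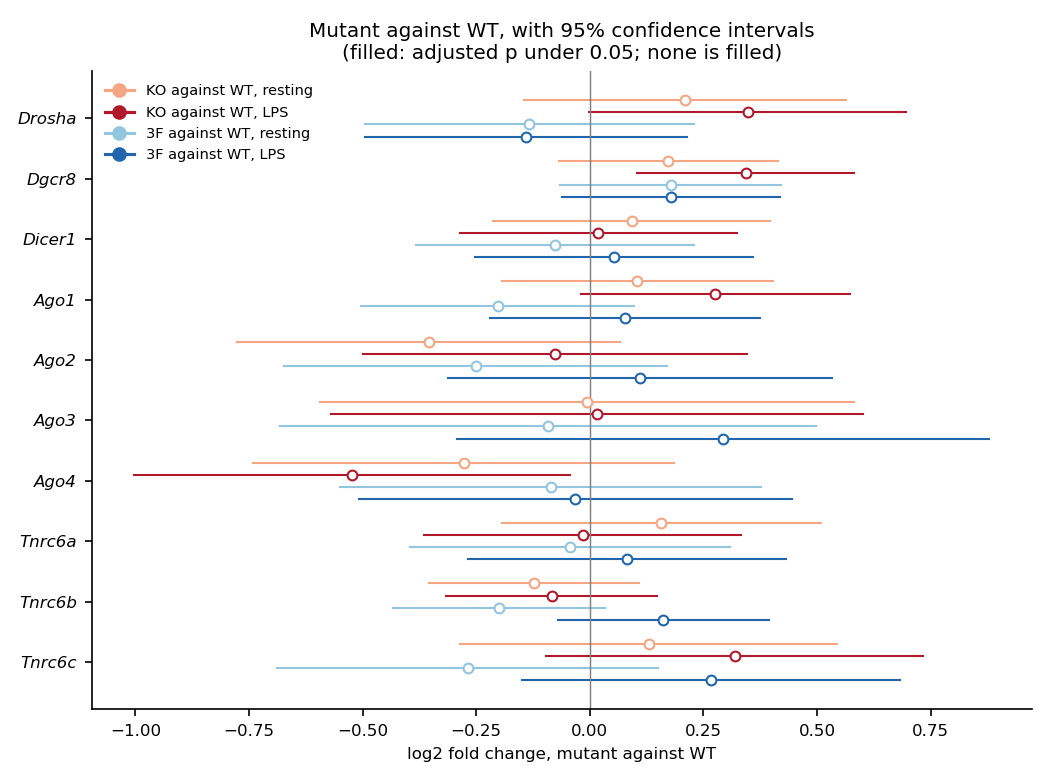
Points are log2 fold changes of KO or 3F against WT for each gene, at rest and after LPS, and bars are 95% confidence intervals. All points are open, since none had an adjusted p under 0.05 in edgeR's quasi-likelihood test. The value farthest from 0 is that of Ago4 in KO after LPS, at -0.52.

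The 1 gene was Dgcr8, at 0.26 ± 0.08 (log2, SE, adjusted p = 0.0333, edgeR) in the mean of both states. After LPS its 3 KO libraries (37.4 to 45.0 CPM) were all above its 3 WT libraries (28.7 to 33.8 CPM), and the log2 fold change was 0.34 ± 0.11 (adjusted p = 0.0939). At rest the KO and WT values overlapped, with 0.17 ± 0.11 (adjusted p = 0.401). In 3F against WT the mean was 0.18 ± 0.08 (adjusted p = 1). The call on the KO mean was made in 13 of 23 alternatives, and it was lost when any of 7 libraries was left out, namely LPS WT libraries 1 and 2, resting WT libraries 1 and 2, LPS KO library 2 and resting KO libraries 1 and 2 (0.21 to 0.26, adjusted p from 0.0545 to 0.0995). It was kept without resting KO library 3 and resting 3F library 3 (0.28, adjusted p = 0.0157). In that fit Ago1 (0.24, adjusted p = 0.0313) and Tnrc6c (0.27, adjusted p = 0.0411) passed too. The fit kept resting WT library 1, also low in long genes, and the part of this in the added calls was not tested.

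The level of Ago4 at rest was 67.7 ± 13.0 CPM (SD, n = 3) in WT and 55.7 ± 19.6 CPM in KO. After LPS it was 26.8 ± 5.17 and 18.7 ± 2.75 CPM. The log2 fold change of KO against WT was -0.28 at rest (adjusted p = 0.498) and -0.52 after LPS (95% confidence interval -1.002 to -0.04, adjusted p = 0.227, edgeR). At rest it was 0.0054 without resting KO library 3 and resting 3F library 3. In the mean of both states it was -0.40 (adjusted p = 0.0863), and -0.50 without resting KO library 1 (adjusted p = 0.0423). Over 23 alternatives this mean ran from -0.52 to -0.23 and was called in 3.

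Drosha was also higher in the KO libraries in value. After LPS its 17.9 to 21.2 CPM in KO lay above the 14.5 to 16.7 CPM of WT and the 13.5 to 14.5 CPM of 3F cells. The log2 fold change was 0.35 against WT (95% confidence interval -0.0010 to 0.70, adjusted p = 0.280) and 0.49 against 3F (0.13 to 0.84, adjusted p = 0.122, edgeR). In the mean of both states against WT it was 0.28 (adjusted p = 0.110), and 0.37 without resting WT library 3 (adjusted p = 0.0375). Over 23 alternatives this mean ran from 0.15 to 0.37 and was called in 1. In KO against 3F no gene of the set passed at rest or after LPS, against 12.9% (6.79% higher, 6.1% lower) and 3.88% (1.51% higher, 2.37% lower) of all tested genes. At an unadjusted p under 0.05 there were 1 and 3, beside 3563 and 1921 of all tested genes. DESeq2 called none and limma with quality weights called 1 and 1. Ago1 was called in 1 of 17 alternatives at rest, and after LPS Drosha was called in 2 and Ago4 in 1 of 16. Tested genes below 2 kb had a median of -0.16 in KO against 3F at rest, and those of 8 kb or more 0.12. For 3F against WT at rest these medians were 0.13 and -0.065. The part of gene length in these comparisons was not tested.

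The other genes of the set gave narrow or wide limits depending on their spread. For Dicer1 the KO against WT interval was -0.21 to 0.40 at rest and -0.29 to 0.32 after LPS, and the 3F intervals were -0.38 to 0.23 and -0.25 to 0.36. For Ago3, with the 2 low resting libraries, they were wider, -0.59 to 0.58 and -0.57 to 0.60 in KO.

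None of the 6 genes with a seed match passed in KO or 3F against WT in either state (edgeR quasi-likelihood test). Of these, Tnrc6b, which had 4, gave -0.12 and -0.08 in KO (adjusted p = 0.556 and 0.761) and -0.20 and 0.16 in 3F (adjusted p = 0.843 and 1), at rest and after LPS. Tnrc6a, which had 2, gave 0.16 and -0.016 in KO and -0.044 and 0.08 in 3F. Ago1, which had 1, gave 0.10 and 0.28 in KO (adjusted p = 0.724 and 0.318) and -0.20 and 0.08 in 3F. Ago2, which had 1, stood at 125 ± 26.6 CPM in resting WT and 97.5 ± 23.0 CPM in resting KO libraries (SD, n = 3), and its values were -0.35 and -0.08 in KO (adjusted p = 0.304 and 0.895) and -0.25 and 0.11 in 3F. The remaining 2 genes also had 1 match each. Ago3 gave -0.0059 and 0.016 in KO and -0.09 and 0.29 in 3F, and Tnrc6c gave 0.13 and 0.32 in KO and -0.27 and 0.27 in 3F. The directions thus differed between the 6 genes.

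The third comparison asked whether the response to LPS differed between genotypes. None of the 10 genes passed for KO minus WT or 3F minus WT, where 0.00881% and 0% of all tested genes did. At an unadjusted p under 0.05 there were 0 and 1 (Tnrc6b in 3F), beside 560 and 203 of all tested genes. Neither DESeq2 nor limma called any. The difference for Ago4 was -0.25 (95% confidence interval -0.91 to 0.42) in KO and 0.05 (-0.61 to 0.72) in 3F. For Ago1 it was 0.17 (-0.25 to 0.59) and 0.28 (-0.14 to 0.70), and for Ago2 0.28 (-0.32 to 0.87) and 0.36 (-0.23 to 0.96). The intervals reach beyond the mean responses of Ago1 and Ago2, so differences of that size lie within them.

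The wider pathway was followed in 7 lists with 74 genes, of which 71 were tested. In the mean LPS response 25 were higher and 15 lower, a share near the 52.1% of all tested genes, and their median log2 fold change was 0.05. Beside this stand 27.8% of all tested genes higher and 24.4% lower in the mean response, which is also the background of each list below. In WT alone 9 were higher and 6 lower, beside 16.3% and 12.3% of all tested genes. Without resting KO library 3 and resting 3F library 3 the mean response had 23 higher and 21 lower, and 62.7% of all tested genes were then called.

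Of 4 Dicer partners and RNA editors, 3 were higher and none lower in the mean LPS response. Adar, the editing enzyme that deaminates adenosine in double-stranded RNA, went from 48.8 ± 10.7 to 164 ± 32.01 CPM in WT (SD, n = 3), a log2 fold change of 1.75 ± 0.36 (SE). Of 10 genes of nuclear processing and export, 4 were higher, among them Srrt (log2 0.39 ± 0.08), which encodes the cap-associated protein ARS2, and 1 was lower, Ddx17 (-0.59 ± 0.07), an RNA helicase of the Microprocessor. Of 13 tested genes of precursor and microRNA turnover, 6 were higher and 2 lower. Zc3h12a, the RNase Regnase-1, rose by 0.90 ± 0.12, and Snd1, a nuclease of the Tudor family, by 0.36 ± 0.06.

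Of 13 tested Argonaute loading factors and partners, 6 were higher and 3 lower in the mean of the genotypes. Mov10, an RNA helicase that binds Argonaute, went from 4.999 ± 0.925 to 32.02 ± 16.7 CPM in WT, a log2 fold change of 2.68 ± 0.66. P4ha1, a prolyl hydroxylase subunit, rose by 1.20 ± 0.23 in WT. Fkbp5, an HSP90 co-chaperone, fell by 0.60 on the log2 scale in the mean of the genotypes, and Lmnb2, a nuclear lamin, by 0.69.

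The lists of deadenylation and decay factors were mixed. Of 13 CCR4-NOT genes 1 was higher and 6 lower, among them the antiproliferative genes Tob1 (log2 -0.87 ± 0.13) and Btg2 (-0.76 ± 0.22 in WT), whose products bind the deadenylase subunits. Of 4 genes of PAN2-PAN3 and poly(A) binding, none was higher and 2 were lower. Of 14 decapping and 5′ decay genes, 5 were higher and 1 lower, and Dcp2, the decapping enzyme, rose by 0.99 ± 0.11 in the mean of the genotypes.

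In KO against WT, 3 of the 71 genes were higher and 1 lower at rest, 0 and 1 after LPS, and 7 and 3 in the mean of both states, where 9.4%, 4.79% and 19.3% of all tested genes were called. With resting KO library 3 and resting 3F library 3 left out, 4 were higher and 3 lower at rest. In the mean of both states 15 were then higher and 4 lower. Of all tested genes 14.6% and 28.1% were called in that fit. At rest Adar ranged over 36.5 to 55.8 CPM in WT libraries and 67.0 to 239.9 CPM in KO libraries (log2 1.41 ± 0.36, adjusted p = 0.0203, edgeR). Without resting KO library 3 and resting 3F library 3 the value was 0.66 (adjusted p = 0.0241). P4ha1 stood at 0.81 ± 0.23 at rest and at 0.40 without those libraries (adjusted p = 0.0818), and Mov10 at 2.32 ± 0.66 (adjusted p = 0.0372) and at 0.55 (adjusted p = 0.351). Mov10, whose KO and WT libraries overlapped at rest, was named there after its values were seen. The lower gene at rest was Lmnb2 (-0.58 ± 0.15). Adar and Mov10 are induced by interferon, and the summed interferon-stimulated genes, 364 to 10847 CPM in resting KO cells, moved with them. Their part in these values was not tested. Fkbp5 after LPS, at 9.46 ± 1.35 CPM in KO and 14.8 ± 1.04 in WT, was the 1 pathway gene that passed there (log2 -0.65 ± 0.16). In 3F against WT no pathway gene passed at rest, after LPS or in the mean of both states.

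Genes with the most similar profile were sought by Pearson's r of log2 CPM over the 18 libraries, which all points share with the LPS contrast and the length differences. Closest to Ago4 was Tcp11l2 (r = 0.980), and closest to Ago1 was Pik3r5 (0.986), a regulatory subunit of phosphoinositide 3-kinase. Dicer1 was closest to Nfatc3 (0.957), Tnrc6a to Map2k7 (0.953), Tnrc6c to Epc1 (0.943), Tnrc6b to Fmnl1 (0.938) and Dgcr8 to Vnn3 (0.919). Ago2 was closest to Tbc1d5 (0.918). Within the set, Ago1 and Ago4 had r = -0.76 and Ago1 and Ago3 0.77 over the libraries. As deviations from the group means, Dicer1 and Tnrc6a had r = 0.93 and Ago4 and Drosha -0.82, values in which the 3 libraries low in long genes take part.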

How the data were processed

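RNA was extracted with Trizol, depleted of ribosomal RNA and made into strand-specific libraries. Per the study's methods, the authors trimmed reads with cutadapt 1.8.3, aligned them to mm10 with HISAT2 2.1.0 and counted them per gene, by strand, with featureCounts 1.5.3 and Gencode M15. The deposited table holds raw read counts per protein-coding gene in 18 libraries, with the exon length of each gene in bases, and groups were read from the labels.

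Counts were tested with edgeR 4.0.16 (R 4.3.3): filterByExpr kept 11357 of 21734 genes, libraries were scaled by TMM, and 1 quasi-likelihood fit of the 6 groups gave 14 comparisons, adjusted by Benjamini-Hochberg over all tested genes and called at 0.05. The standard error was the log2 fold change divided by the square root of F. Profiles used log2 CPM with a pseudocount of 0.5. Pathway genes were named where their called change was among the 4 largest of its direction, provided that the compared libraries were fully apart and mean log2 CPM was not below 1. Alternatives included DESeq2 1.42.0, limma 3.58.1, other scalings and filters, and leaving out each library. The fit was tested on simulated counts. The 10 genes and the pathway and marker lists were chosen with earlier results of these data known. The nearest profiles of Ago3 and Drosha are not reported here.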

Additional observations from a re-analysis of the deposited data

How the results depend on the processing

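The fall of Ago4 after LPS passed in every alternative run in WT (16), KO (17), 3F (17) and the mean of the genotypes (28), and the mean responses of Ago1 and Ago2 passed in all 28. Over the 14 calls made on the 10 genes, 306 of 307 alternative values kept their direction and 40 lost the call. The number of genes called for LPS in KO went from 2 to 4 with a length-trend offset, 4 with library size alone, 5 without resting KO library 3 and resting 3F library 3 and 7 with limma's quality weights. Without those libraries 44.2% of all tested genes were called there, beside 26.9% with them. In 3F it went from 2 to 4 without those libraries (35.1% of all tested genes, beside 31.2% with them) and 4 with quality weights. In KO against WT it went from 0 to 2 after LPS with quality weights, and in the mean of both states from 1 to 3 without those libraries (28.1% of all tested genes, beside 19.3% with them) and 0 with no filter on low counts. In KO against 3F it went from 0 to 1 at rest and 1 after LPS with quality weights, and to 2 after LPS with the compared groups alone. The offset and the fit without both libraries were chosen after seeing the data, and that fit kept resting WT library 1. Leaving out 1 library at a time gave 1 to 3 genes for LPS in WT, 1 to 3 in KO, 2 in 3F, 4 to 6 in the mean, and 0 to 2 for KO against WT in the mean of both states. Shares of all tested genes under the other alternatives are not given here, so these counts are not read as results about the 10 genes.

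Scaling by library size alone moved the median of all tested genes by -0.24 in WT, -0.26 in KO and -0.21 in 3F, and turned the LPS values of Dgcr8 in WT (-0.13), 3F (-0.073) and the mean (-0.063), of Tnrc6a in WT (-0.080) and the mean (-0.095), and of Drosha in KO (-0.042) and the mean (-0.11). LPS values within 1 SE of 0 that also turned were those of Drosha in WT (-0.16) and 3F (-0.11), Dicer1 in 3F (-0.18), Tnrc6b in 3F (-0.16), and Tnrc6c in KO (-0.25) and the mean (-0.17). In KO against WT at rest, quality weights turned Ago4 to 0.074 and Drosha to -0.046. Without both libraries Ago4 there was 0.0054 and the LPS value of Ago3 in KO was -0.049. The cause was not tested. With library size alone 21 of 60 group means moved by over 1 SD, by ratios of 0.860 to 1.13.

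The replicate numbers were not taken as pairs. Deviations from the group means of resting and LPS libraries with the same number correlated at -0.0020 to 0.34 within a genotype, not all over 0.1, and libraries of the same number in different genotypes at -0.38 to 0.18. With a replicate block within genotype the LPS counts were 2 in WT, 2 in KO, 3 in 3F and 5 in the mean, and with the block as a random effect in limma 4, 3, 2 and 6. The first block lost Tnrc6b in WT (adjusted p = 0.0821) and the mean (0.0538) and gained Ago3 in 3F (0.0322), and the second gained Ago1 in WT (0.0320) and Dgcr8 in KO (0.0485). For KO against WT in the mean of both states, a replicate block by number lost Dgcr8 (0.0508) and gained Ago4 (0.0368). Counts of 62 or more per gene and library set the counting error, and 3 libraries a group limit the differences that could be seen.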
